A study of Rattus norvegicus with 6 samples.

Results

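Transcripts of 9 trophic factor genes were followed in cultured rat oligodendrocyte precursor cells: Bdnf, Gdnf, Ntf3, Cntf, Lif, Igf1, Fgf2, Pdgfa and Mdk. The rule that picks them uses gene symbols and no measured value, though the members were chosen with earlier results of these data known. They make up 9 of the 32662 genes in the deposited table. Each symbol matched 1 row. The cells were primary precursors from the cerebral cortex of Sprague-Dawley rats aged 1 to 2 days, collected as the floating cells of a mixed glial culture grown in 20% fetal bovine serum. Every culture, control or treated, was then kept for 4 to 5 days in Neurobasal medium with PDGF and FGF (10 ng/ml each) and 2% B27, so 2 of the protein families described here were supplied to both groups. There were 3 control libraries and 3 libraries from cells given preformed fibrils of human alpha-synuclein (the fibril group), with an incubation of 72 hours. Nothing in the labels states that a group's libraries are separate animals or cultures. The p-values below therefore cover the spread among the 3 libraries of a group, which may be technical.

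Neurotrophic and glial growth factors are secreted proteins that keep neurons and glia alive and steer their division and maturation. BDNF and NT-3 signal through Trk receptors, GDNF through a GFR alpha subunit with RET, and CNTF and LIF through receptors that share gp130. IGF-1, FGF-2 and PDGF-A act through receptor tyrosine kinases, and midkine binds a receptor phosphatase and cell surface proteoglycans. In the oligodendrocyte lineage PDGF-A is the classical mitogen of precursors, made mainly by astrocytes and neurons. FGF-2 holds precursors in division, IGF-1 promotes survival and myelin formation, and CNTF and LIF support oligodendrocyte survival.

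Levels are given as FPKM, a unit scaled by gene length and by the size of the library, so that genes can be compared with one another. Fragment numbers are unknown, and depth differed: taking the FPKM that 1 fragment added in control replicate 2 as 1, it added 4.00 in control replicate 1, 6.82 in fibril replicate 1, and 0.824 to 1.95 in the remaining 3 libraries. Both replicate 1 libraries also had 80.3% and 75.6% of their FPKM total in mitochondrial genes, against 12% to 40.1% in the others, so low values in replicate 1 are the least precise. Hprt1 and Rps6, genes that every cell uses, were listed at 0 in 6 of 6 libraries. A value of 0 may therefore be a failed estimate.

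The members fell into 3 levels. Pdgfa was the most abundant by its group means, Cntf and Mdk stood at a few FPKM, and the other 6 were lower. Of these, Bdnf, Gdnf, Ntf3, Lif and Fgf2 were near or at the detection limit, and Igf1 had 0.28 to 1.04 FPKM. Of the 54 values (9 genes in 6 libraries), 21 were 0. Ntf3 was at 0 in 6 of 6 libraries, Gdnf and Lif were above 0 in 1 library each, Fgf2 in 3, Bdnf in 4, and Igf1, Cntf, Mdk and Pdgfa in all 6. Bdnf, Gdnf, Ntf3, Lif and Fgf2 were below 1 FPKM in every library, and Igf1 exceeded 1 FPKM in control replicate 2 only. The number of members above 0 was 5, 6 and 7 in control replicates 1, 2 and 3, and 4, 7 and 4 in the fibril replicates. Cntf was above Mdk in 5 of 6 libraries, all but fibril replicate 3, though their ranges overlapped (2.21 to 3.91 and 0.616 to 4.17 FPKM). A test across genes on log2(FPKM + 1) covered 10766 genes, those reaching 1 FPKM in 3 or more libraries; 3 members, Pdgfa, Cntf and Mdk, passed this filter and 6 did not.

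**Figure D1:**
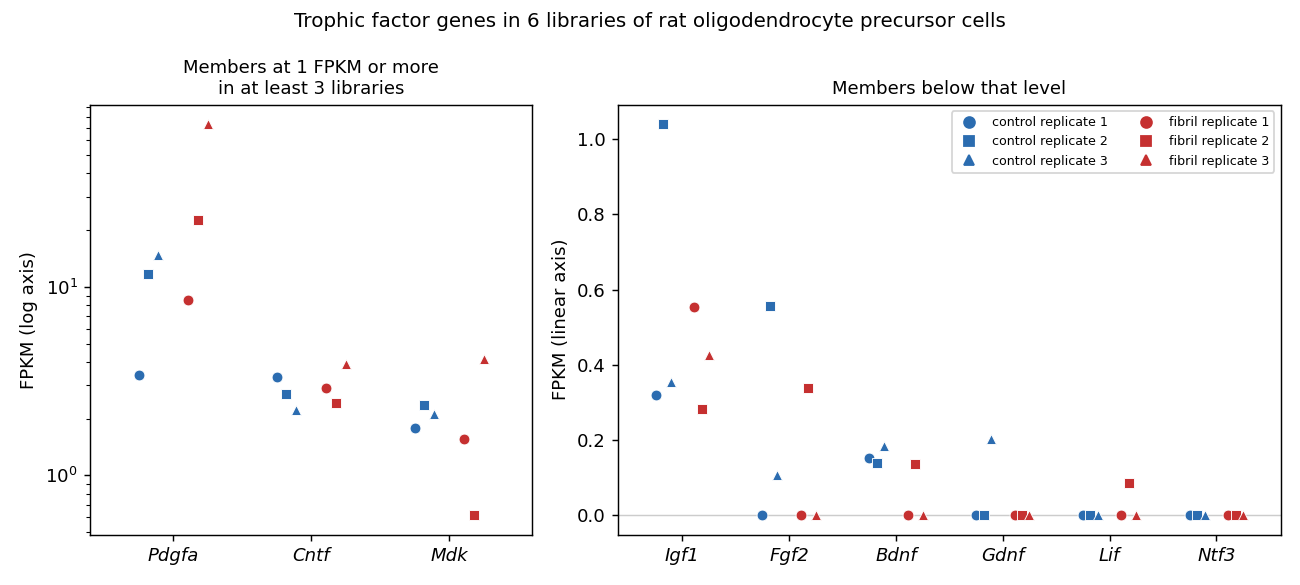
FPKM of the 9 trophic factor genes in each library (controls blue, fibril libraries red, 1 marker shape for each replicate number). The left panel (log axis) shows the 3 genes that passed the filter, with Pdgfa reaching 73.0 FPKM in fibril replicate 3; the right panel (linear axis) shows the other 6, where only Igf1 in control replicate 2 (1.04 FPKM) exceeds 1 FPKM.

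Pdgfa encodes the A chain of platelet-derived growth factor and lies on chromosome 12 (17734132 to 17755285 in the deposited table, which lists 3 start sites for it). It had 3.41, 11.8 and 14.9 FPKM in control replicates 1, 2 and 3, and 8.57, 22.7 and 73.0 FPKM in the fibril replicates. Each fibril library was above the control library of the same number, by 2.51, 1.93 and 4.91 times. The groups nevertheless overlapped, because fibril replicate 1 was below control replicates 2 and 3. The share of detected genes with a higher level than Pdgfa was 64.2%, 32.4% and 29.5% in control replicates 1, 2 and 3, and 45.8%, 19.1% and 8.61% in the fibril replicates. The log2 difference was 1.41 ± 0.77 (SE, n = 3 per group) and did not pass by limma (adjusted p = 0.96). With the replicate number as a block its SE was 0.35 and its unadjusted p was 0.00439, but the adjusted p over all genes was 0.323 by limma. Being higher in 3 of 3 replicate numbers was shared by 16.9% of the genes tested. The difference became 0.64 without fibril replicate 3, 0.85 without control replicate 1 and 2.12 without fibril replicate 1.

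The RefSeq sequences upstream of Pdgfa and Cntf (build GRCr8) are shown because these are the 2 filtered members with an entry among the promoter sequences, which held 7 of the 9 members. Each run is the 250 bases before the gene's start, read 5′ to 3′ on the gene's strand, chr12:20759116-20759365 (plus strand) for Pdgfa and chr1:219314536-219314785 (minus strand) for Cntf. Capitals mark matches to any of 4 motifs, searched on both strands.
Pdgfa: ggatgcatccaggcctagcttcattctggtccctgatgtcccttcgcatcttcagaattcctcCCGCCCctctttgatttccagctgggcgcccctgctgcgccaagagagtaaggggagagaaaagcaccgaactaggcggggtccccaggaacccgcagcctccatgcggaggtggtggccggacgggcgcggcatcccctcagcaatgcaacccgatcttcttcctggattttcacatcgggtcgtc
Cntf: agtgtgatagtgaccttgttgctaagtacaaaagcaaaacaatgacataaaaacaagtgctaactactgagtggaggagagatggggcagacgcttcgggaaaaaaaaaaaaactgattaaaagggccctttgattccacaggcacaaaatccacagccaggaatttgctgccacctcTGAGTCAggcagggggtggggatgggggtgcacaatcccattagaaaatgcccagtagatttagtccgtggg
The Pdgfa run held 1 GC box (GGGCGG, here on the other strand), a motif found in 30.5% of 33469 promoters of the same length. The Cntf run held 1 AP-1 site (TGANTCA), found in 6.34% of them. Neither held the TATA box TATAAA (12.9% of promoters) or the cAMP response motif TGACG (18.2%). The motifs do not overlap one another in these runs, and a match is a description of the letters only. Both differed in base composition. The Pdgfa run was 60.8% G or C with 15 CpG, against 46.4% with 3 CpG for Cntf and medians of 51.2% and 5 over all promoters.

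Among the other PDGF chains, Pdgfc, encoding another chain that binds the same receptor, had 9.81, 4.40 and 9.13 FPKM in the control group, and 6.50, 8.05 and 6.12 FPKM in the fibril group. The ratio of Pdgfa to Pdgfc was 0.348, 2.68 and 1.63 in control replicates 1, 2 and 3 and 1.32, 2.82 and 11.9 in the fibril replicates, so that the groups overlapped. Pdgfb had at most 0.132 FPKM. Pdgfd had 0.617, 0.329 and 0.236 FPKM in the control group, and was listed at 0 in all 3 fibril libraries. Pdgfd was below the filter and not tested, and 5.3% of the genes tested were lower without overlap. Its values of 0 may be failed estimates. Pdgfra, the receptor through which precursors respond to PDGF-A, had 47.5, 146 and 304 FPKM in the control group, and 43.4, 95.3 and 60.2 FPKM in the fibril group. Its log2 difference was -1.02 ± 0.68 (SE, n = 3 per group; limma adjusted p = 0.96) and the groups overlapped. It was -0.40 without control replicate 3 and -1.73 without control replicate 1. Within a library, Pdgfa amounted to 0.0488 to 0.081 times the Pdgfra level in the controls and to 0.198, 0.238 and 1.21 times in the fibril replicates. This ratio was not tested, and no share of other gene pairs that separate in this way is given. Neither gene passed by limma (adjusted p = 0.96 for both). Pdgfrb, the other receptor, had at most 0.0512 FPKM.

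**Figure D2:**
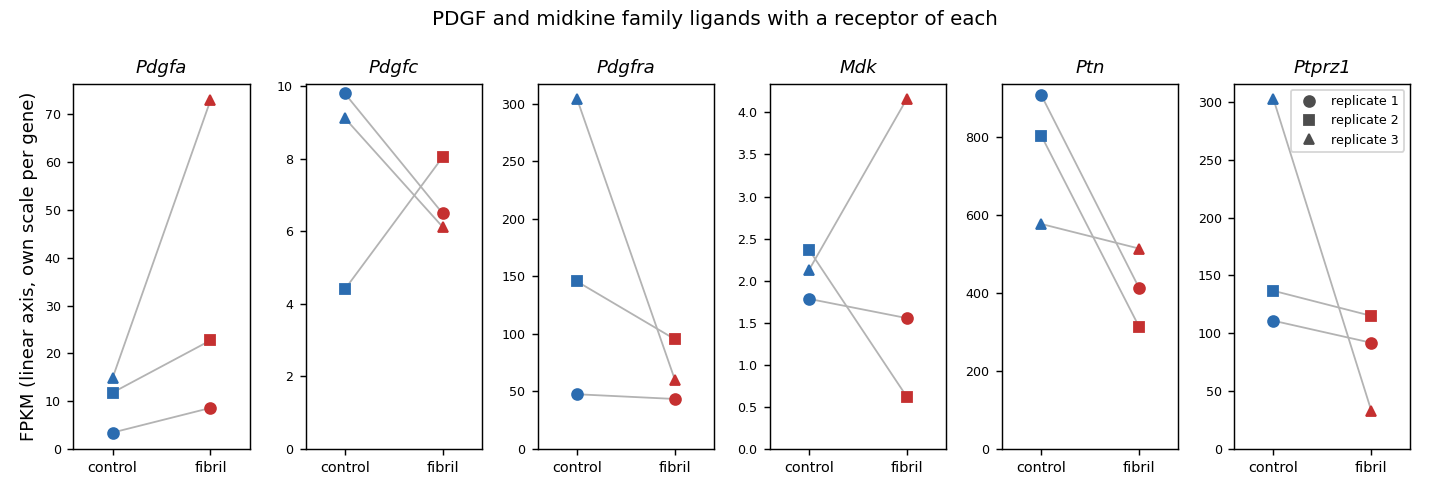
FPKM of Pdgfa, Pdgfc, Pdgfra, Mdk, Ptn and Ptprz1 (linear axes, 1 scale per gene), with control libraries in blue, fibril libraries in red and grey lines joining libraries of the same replicate number. Pdgfa is higher and Pdgfra lower with fibrils at each number, while Ptn in the fibril libraries (313 to 514 FPKM) lies below all 3 controls (577 to 908 FPKM).

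Mdk encodes midkine, a heparin-binding growth factor. The table gives it the same interval as the muscarinic receptor gene Chrm4 on chromosome 3 (80833271 to 80842916), so its own limits are not separated there; Chrm4 had at most 0.505 FPKM. Mdk had 1.78, 2.37 and 2.13 FPKM in the control group, and 1.55, 0.616 and 4.17 FPKM in the fibril group. Controls lay close together, while the fibril libraries included both the lowest and the highest value of the 6. The log2 difference was -0.15 ± 0.48 (SE, n = 3 per group; limma adjusted p = 0.983), and 0.24 without fibril replicate 2, where Mdk was lowest, against -0.60 without fibril replicate 3.

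Ptn, encoding pleiotrophin, the only other member of the midkine family, was far more abundant. It had 908, 804 and 577 FPKM in the control group, and 413, 313 and 514 FPKM in the fibril group, 124 to 509 times the Mdk level of the same library. Group means were 763 ± 169 and 413 ± 101 FPKM (SD, n = 3 each). The groups did not overlap (5.3% of the genes tested were lower in that way). The log2 difference of -0.89 ± 0.52 (SE) did not pass by limma (adjusted p = 0.96, and 0.5 with the replicate block), and within replicates 1, 2 and 3 it was -1.14, -1.36 and -0.17. Ptprz1, the receptor phosphatase that binds both proteins and a marker of precursors, had 111, 137 and 302 FPKM in the control group, and 91.7, 115 and 32.9 FPKM in the fibril group. Its log2 difference of -1.23 ± 0.60 (SE, n = 3 per group; limma adjusted p = 0.96) lay mainly in replicate 3 (-3.16, against -0.27 and -0.25), and was -0.69 without fibril replicate 3 and -0.80 without control replicate 3. Alk, a receptor tyrosine kinase of the same ligands, was below the filter at 0.237, 0.781 and 0.874 FPKM against 0.204, 0.113 and 0.114 FPKM.

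Fgf2 encodes basic fibroblast growth factor. It was listed at 0 in both replicate 1 libraries and in fibril replicate 3, and had 0.556 and 0.108 FPKM in control replicates 2 and 3 and 0.339 FPKM in fibril replicate 2. The groups overlapped, and an exact permutation test of log2(FPKM + 1) gave p = 0.7 (two-sided, n = 3 per group, where the smallest possible p is 0.1; 0.8 adjusted over Bdnf, Igf1 and Fgf2, the 3 members tested this way). The table gives Fgf2 and Nudt6, a gene known to lie antisense to it, the same interval on chromosome 2 (124081071 to 124149636). Nudt6 had 2.30, 3.02 and 3.29 FPKM in the control group, and 0.997, 1.70 and 4.63 FPKM in the fibril group. The library kit keeps strand, but the sources used here do not state whether the counting did, so the low Fgf2 values are uncertain.

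Of 8 other fibroblast growth factor genes, Fgf1, Fgf7, Fgf10 and Fgf18 were also below 1 FPKM in every library, Fgf7 and Fgf18 listed at 0 in 6 of 6. Fgf9 had 2.33, 0.363 and 0.592 FPKM in the control group, and 1.01, 0.0945 and 0.569 FPKM in the fibril group. Fgf5 had 0.790, 0.622 and 1.33 FPKM in the control group, and was listed at 0 in all 3 fibril libraries. It was below the filter and not tested, and 5.3% of the genes tested were lower without overlap. A fragment was worth 6.82 in fibril replicate 1, and a 0 may be a failed estimate. Fgf12 (6.11 to 39.0 FPKM) and Fgf13 (3.76 to 9.41 FPKM) were the 2 that passed the filter, and both encode intracellular proteins that do not act as secreted ligands. Among the receptors, Fgfr1 had 9.86, 33.3 and 43.6 FPKM in the control group, and 7.94, 22.0 and 17.8 FPKM in the fibril group. Fgfr2, a receptor of more mature oligodendrocytes, had 2.60, 0.501 and 0.904 FPKM in the control group, and 6.38, 2.14 and 5.19 FPKM in the fibril group. Its log2 difference was 1.27 ± 0.50 (SE, n = 3 per group), at 1.04, 1.06 and 1.70 within replicates 1, 2 and 3. Being higher within each replicate number was shared by 16.9% of the genes tested. The groups overlapped, with control replicate 1 above fibril replicate 2. For Fgfr2, limma gave an adjusted p of 0.96, or 0.359 with the block.

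Cntf encodes ciliary neurotrophic factor and lies on chromosome 1 (229599008 to 229601032). It had 3.34, 2.71 and 2.21 FPKM in the control group, and 2.90, 2.41 and 3.91 FPKM in the fibril group, the narrowest relative spread among members that passed the filter. The groups overlapped, with the lowest value in control replicate 3 and the highest in fibril replicate 3. Group means were 2.76 ± 0.57 and 3.07 ± 0.76 FPKM (SD, n = 3 each), with a log2 difference of 0.11 ± 0.37 (SE) and a limma adjusted p of 0.983. The sign was negative within replicates 1 and 2 (-0.16 and -0.12) and positive within replicate 3 (0.61), and it turned negative without fibril replicate 3 (-0.031) and after rescaling without mitochondrial genes (-0.12).

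Lif, encoding leukemia inhibitory factor (chromosome 14, 84482673 to 84500642), was above 0 only in fibril replicate 2, at 0.0842 FPKM. Among its family relatives, Osm and Il11 were listed at 0 throughout, Il6 had 0.392 FPKM in fibril replicate 2 alone, Clcf1 0.083 FPKM in that library alone, and Ctf1 at most 0.422 FPKM. Receptor genes were present in both groups. Cntfr, the CNTF-specific subunit, had 1.57, 13.0 and 14.6 FPKM in the control group, and 2.17, 4.39 and 10.8 FPKM in the fibril group. Lifr had 3.04, 2.22 and 1.94 FPKM against 2.34, 0.934 and 0.151 FPKM, and Il6st, encoding gp130, had 5.15, 8.82 and 16.2 FPKM against 4.12, 8.20 and 2.04 FPKM. Both were lower with fibrils within each replicate number, which 19.3% of the genes tested were, and neither passed by limma (adjusted p = 0.96 for both). Socs3, a target gene of gp130 signalling, had 1.45, 5.86 and 4.49 FPKM in the control group, and 5.05, 6.89 and 3.70 FPKM in the fibril group.

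Igf1 encodes insulin-like growth factor 1 (chromosome 7, 28412197 to 28486609). It had 0.321, 1.04 and 0.355 FPKM in the control group, and 0.554, 0.282 and 0.425 FPKM in the fibril group. Control replicate 2 was the highest library, the other 5 lay between 0.282 and 0.554 FPKM, and the groups overlapped (exact permutation test, two-sided p = 0.8, n = 3 per group; 0.8 adjusted over the same 3 members). Fibril replicate 1 exceeded control replicate 1 by 1.73 times. Divided by the relative worth of a fragment, control replicate 1 came to 0.0802 and fibril replicate 1 to 0.0812. These stand for relative fragment numbers, not for levels corrected for depth, and cannot be set against libraries of other depth. The worth of a fragment in fibril replicate 1 (6.82) was itself set against control replicate 1 (4.00). It came from the commonest ratio among genes below 1 FPKM, which include Igf1 in both libraries. The divided values are therefore not independent of the FPKM ratio, and its cause was not tested.

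Microglia, which make IGF-1, can be carried along from mixed glia, so their markers are given here. The 12 microglia and macrophage markers summed to 8.76, 47.1 and 2.00 FPKM in the control group, and to 13.5, 62.3 and 36.6 FPKM in the fibril group, and 0 of the 12 were at 0 in every library. Control replicate 2, the highest for Igf1, had the highest value of 6 of the 12 (C1qa, C1qb, C1qc, Csf1r, Cx3cr1 and Trem2). Fibril replicate 2, the lowest for Igf1, had the largest marker sum and the highest value of 5 (Aif1, Cd14, Cd68, Ptprc and Tyrobp). Cd14 was the 1 marker whose groups did not overlap, at 0, 0.26 and 0.0708 FPKM against 2.39, 10.6 and 3.23 FPKM (background 4.24% of genes tested higher). Their part in the Igf1 values was not tested, and in bulk RNA fewer cells of a type and less RNA per cell cannot be told apart.

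Igf2, the other insulin-like growth factor, had 0.651, 0.319 and 0.229 FPKM in the control group, and 3.60, 4.39 and 0.326 FPKM in the fibril group; fibril replicates 1 and 2 were above every control and replicate 3 was not. Igf1r, the receptor of both, had 0.831, 2.27 and 3.68 FPKM in the control group, and 0.238, 2.92 and 1.13 FPKM in the fibril group. Igfbp2, which binds and carries IGFs, had 13.2, 49.0 and 28.4 FPKM in the control group, and 4.87, 4.96 and 18.2 FPKM in the fibril group. Its log2 difference was -1.65 ± 0.62 (SE, n = 3 per group; limma adjusted p = 0.96, or 0.389 with the block) and fibril replicate 3 overlapped the controls. Igfbp3 did not overlap, at 18.0, 14.4 and 12.5 FPKM against 10.4, 7.98 and 11.4 FPKM, and had a log2 difference of -0.55 ± 0.37 (SE; limma adjusted p = 0.96). Igfbp5 was below the filter and not tested, with 4.33, 1.20 and 0.783 FPKM against 0.669, 0.275 and 0.276 FPKM, also without overlap. Its highest value was in control replicate 1, where a fragment was worth 4.00. Of the genes tested, 5.3% were lower without overlap. Igfbp1, Igfbp6 and Igfals were listed at 0 throughout.

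Bdnf encodes brain-derived neurotrophic factor (chromosome 3, 100768636 to 100819210, with 8 start sites in the table). It had 0.153, 0.139 and 0.183 FPKM in controls, 0.136 FPKM in fibril replicate 2 and 0 in fibril replicates 1 and 3. The groups did not overlap (5.3% of the genes tested were lower in that way, and Bdnf was below the filter). Control replicate 2 and fibril replicate 2 were close, at 0.139 and 0.136 FPKM. A fragment was worth 6.82 in fibril replicate 1 and 1.95 in fibril replicate 3, against 4.00, 1 and 0.824 in control replicates 1, 2 and 3. The values of 0 in those fibril libraries are therefore not shown to be lower levels. The exact permutation test gave p = 0.1 (two-sided, n = 3 per group), the smallest it allows, and 0.3 adjusted over the 3 members tested this way.

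Ntf3, encoding NT-3 (chromosome 4, 158636883 to 158705886), and Ntf4 were listed at 0 in 6 of 6 libraries. The Trk receptor genes Ntrk2 and Ntrk3 passed the filter. Ntrk2, the BDNF receptor, had 75.2, 83.2 and 145 FPKM in the control group, and 56.9, 65.7 and 46.1 FPKM in the fibril group. Its groups did not overlap (5.3% of the genes tested were lower in that way). The Ntrk2 log2 difference was -0.79 ± 0.42 (SE, n = 3 per group, limma adjusted p = 0.96, or 0.5 with the block). Without control replicate 3 it was -0.50. Ntrk3, the NT-3 receptor, had 13.5, 34.3 and 39.8 FPKM in the control group, and 4.95, 23.2 and 3.02 FPKM in the fibril group. Its log2 difference was -1.72 ± 0.71 (SE; limma adjusted p = 0.96, or 0.415 with the block), and control replicate 1 lay below fibril replicate 2. Ngfr, encoding the low-affinity neurotrophin receptor, had at most 0.302 FPKM.

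Gdnf encodes glial cell line-derived neurotrophic factor (chromosome 2, 56887986 to 56910238) and was above 0 only in control replicate 3, at 0.201 FPKM. That library was the one where a fragment was worth least. Its binding subunit gene Gfra1 had 3.66, 12 and 19.4 FPKM in the control group, and 1.99, 6.11 and 5.48 FPKM in the fibril group. Ret, the signalling subunit, had at most 0.202 FPKM. Among relatives of Gdnf, Pspn reached 2.98 FPKM in control replicate 1, where a fragment was worth 4.00, and at most 1.10 FPKM elsewhere. Nrtn and Artn stayed at or below 0.519 FPKM.

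Across all genes tested, no gene passed by limma without a block in either direction (0.0%; 433 genes had an unadjusted p under 0.05), and with the replicate block 12 were higher (0.111%) and 0 lower. Of the 3 members tested, 0 passed in either fit and 0 had groups that did not overlap, against 9.55% of all genes. The table held 34 of 34 listed receptors and co-receptors, and 23 were tested. Of these 0 passed in either fit, and 1 (Ntrk2) was lower without overlap, against 5.3% of all genes. Differences were negative for 20 and positive for 3, against 5704 negative and 5062 positive of the 10766 genes tested. The receptor median was -0.70, against -0.04 over all genes. Within replicates 1, 2 and 3 the receptor median was -0.27, -0.16 and -1.53, against 0.003, -0.037 and -0.05 over all genes. The receptor median of replicate 3 was the lowest of the 3. When libraries were rescaled to equal totals without mitochondrial genes, which moved the median of all genes to -0.30, the receptor median was -0.94.

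**Figure D3:**
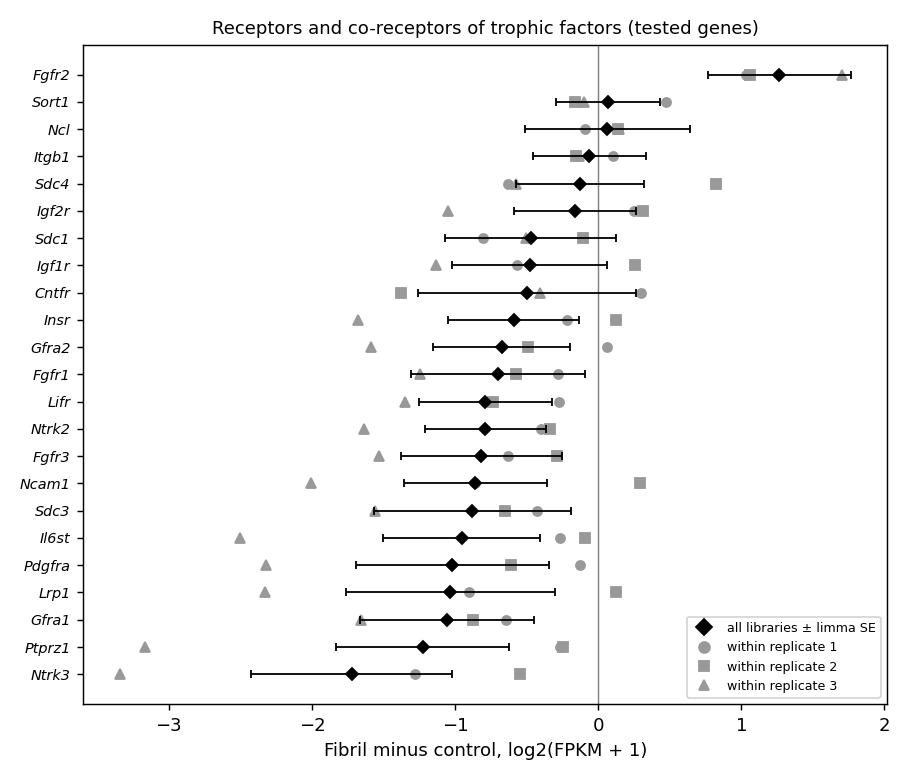
Fibril minus control difference in log2(FPKM + 1) of the 23 tested receptor and co-receptor genes (diamonds with limma SE) and the differences within each replicate number (grey markers). Fgfr2 is highest at 1.27 and Ntrk3 lowest at -1.72, and the replicate 3 markers reach furthest to the left.

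Of 36 listed related ligands, 35 were in the table and 11 passed the filter; 5 were listed at 0 throughout. None of the 11 passed in either limma fit, 2 had positive and 9 negative differences (median -0.27), and Ptn was the 1 without overlap, near the 9.55% of all genes. The 3 with the highest group means after Ptn were Gas6, a ligand of TAM receptors (91.5, 161 and 220 FPKM against 53.7, 108 and 117 FPKM), Manf, a secreted chaperone-like factor (109, 92.1 and 78.1 FPKM against 133, 96.9 and 162 FPKM), and Tgfa, an EGF receptor ligand (74.6, 27.9 and 51.4 FPKM against 68.9, 42.6 and 36.2 FPKM). Of 16 binding proteins and processing enzymes 9 were tested and 0 passed (3 positive, 6 negative, median -0.27), and 1 (Igfbp3) was lower without overlap, a share also near that of all genes.

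**Figure D4:**
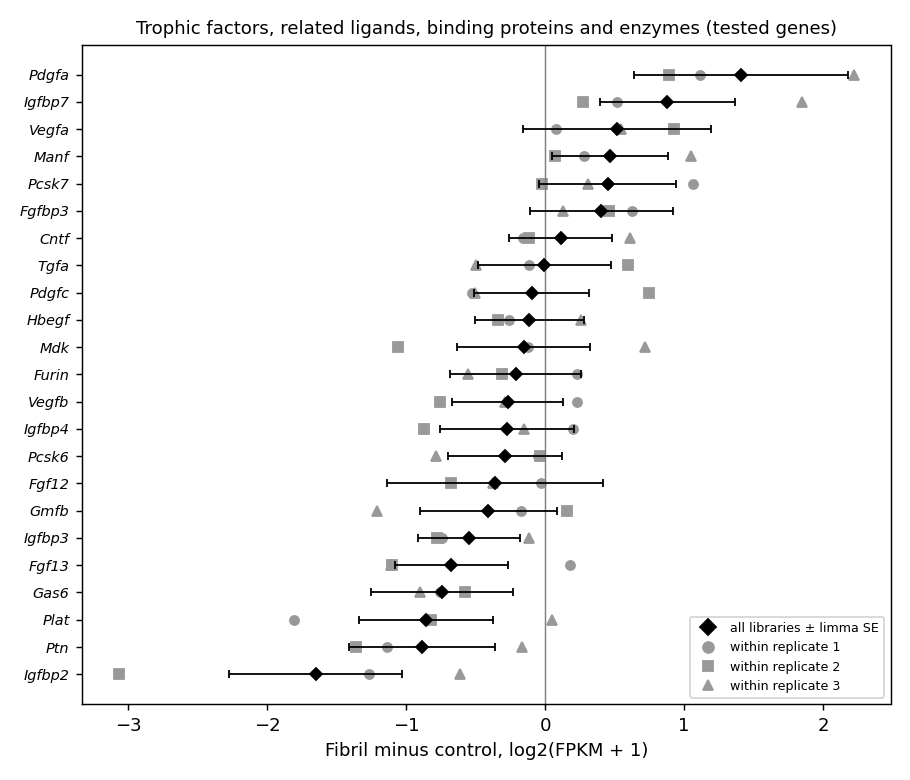
Fibril minus control difference in log2(FPKM + 1) of the 23 tested members, related ligands, binding proteins and enzymes (diamonds with limma SE), with the differences within each replicate number in grey. Pdgfa is highest at 1.41 and Igfbp2 lowest at -1.65, while Cntf (0.11) and Mdk (-0.15) lie near 0 with replicates on both sides.

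Of 17 listed signal mediators, 16 were in the table (Grb2 on 2 rows) and 15 rows were tested. None passed in either fit, with 8 positive and 7 negative differences and a median of 0.001. Mapk3, encoding ERK1, a kinase on which these receptors converge, was the 1 without overlap (4.24% of all genes were higher in that way). It had 42.5, 34.2 and 37.9 FPKM in the control group, and 116, 97.7 and 213 FPKM in the fibril group, and its log2 difference was 1.79 ± 0.43 (SE, n = 3 per group; limma adjusted p = 0.623, or 0.148 with the block).

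By the smallest root mean square difference of centred log2 values over the 6 libraries, the genes most like Pdgfa were Apbb1 (0.223) and Tmem189 (0.245). Apbb1 had 17.0, 37.2 and 50.4 FPKM in the control group, and 42.7, 77.4 and 228 FPKM in the fibril group. Those most like Mdk were Mettl13 (0.162) and Jund (0.163). Cntf varied too little for the search.

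Markers of the labelled cell type were abundant in both groups. The 7 listed precursor markers in the table summed to 1464 to 2392 FPKM in the control group, and 1180 to 1382 FPKM in the fibril group. The sum hides differences among them. Fibril over control ratios of the means were 0.39 for Cspg4, 0.40 for Pdgfra, 0.44 for Ptprz1 and 0.63 for Gpr17. They were 0.70 for Olig2, 0.80 for Olig1 and 1.24 for Sox10, and 0 of the 7 had groups without overlap. The 8 markers of differentiating oligodendrocytes summed to 310 to 756 FPKM in the control group, and 2119 to 3903 FPKM in the fibril group, 6 of 8 higher without overlap (4.24% of all genes tested). Astrocyte markers summed to 175 to 196 FPKM in the control group, and 101 to 260 FPKM in the fibril group. Of these 8 genes, 2 (Slc1a3 and Gja1) were lower and 1 (Gfap) higher without overlap, against 5.3% and 4.24% of all genes tested. Neuron markers summed to 273 to 602 and 112 to 398 FPKM (8 genes, 3 lower without overlap, against the same 5.3%). The largest term in every library was Aldoc for astrocytes (66.6 to 92.8 FPKM in controls, 68.2 to 181 with fibrils). For neurons it was Map2 (184 to 454 FPKM in controls, 55.1 to 325 with fibrils). The sums are therefore not measures of the amount of a cell type. The part of these cell types in the Pdgfa, Ptn and receptor values was not tested. Endothelial and fibroblast or mural markers summed to at most 0.407 and 0.877 FPKM.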

How the data were processed

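RNA from 3 control and 3 fibril samples was made into strand-specific libraries, per the labels' protocols. The authors deposited FPKM per gene, 1 column per library, per the file headers. The tools listed, per the submitters' processing notes, include Trimmomatic and FastQC. An aligner, a quantifier and a genome build were not given in the sources used here. Table coordinates are as deposited. The rule for the members uses symbols alone, but the members and lists were chosen with earlier results of these data known.

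Differences were tested with limma 3.58.1 (R 4.3.3; trend, two-sided, Benjamini-Hochberg, threshold 0.05) on log2(FPKM + 1), which understates changes of low genes; FPKM are not counts, so no count model was run. The limma fit was run on simulated data with known changes, a check of the median estimated change only. How many changed genes it recovers is not given here. Same-numbered libraries correlated, after subtracting group means, at 0.747, 0.364 and 0.216 for replicates 1, 2 and 3. Each exceeded 0.1, so fits blocked on replicate number are given too. The labels state no pairing. Control replicate 3 correlated more with fibril replicate 2 (0.500), and control replicate 2 more with fibril replicate 3 (0.433), than with their own numbers. Only for replicate 1 was the same number the closest. The blocked fits and the differences within replicate numbers rest on this numbering. The relative worth of a fragment was the commonest ratio between libraries of like depth (within 0.03 on the log2 scale) among genes below 1 FPKM. Named genes were the members and fixed lists. Of these lists, 5 symbols did not match a row. Alternatives were other pseudocounts, filters and scalings, the block, and leaving out libraries. Values of 3 listed genes are not reported here.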

Additional observations from a re-analysis of the deposited data

How the results depend on the processing

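No member passed a limma adjusted p of 0.05 under any of the alternatives run. Pdgfa stayed positive in 16 of 16 (0.64 to 2.12, the range when libraries were left out in turn). The Cntf difference reversed to -0.12 after rescaling without mitochondrial genes, with or without the replicate block, which is 0.18 above the median of all genes there (-0.30). Leaving out 1 library in turn gave -0.031 (without fibril replicate 3) to 0.23 for Cntf and -0.60 to 0.24 for Mdk, and the cause was not tested. The count of genes past the threshold moved from 0 to 12 higher with the replicate block, to 1 higher with the block after rescaling, and to 84 higher and 48 lower with the block on replicates 2 and 3 only, a fit with 1 residual degree of freedom. Leaving out 1 library in turn gave 0 to 3 higher and 0 lower. Members below the cut in every library numbered 5 at 1 FPKM, 4 at 0.5 FPKM and 6 at 2 FPKM. The 9 other genes for which a difference is given as a comparison kept their direction in all alternatives that could be run, but some sizes moved by over 1.5 times: Fgfr2 to 0.58 with a pseudocount of 5, Ptn to -1.44 with quantile normalization, Igfbp3 to -0.83 after rescaling, and, with a library left out, Pdgfra to -0.40 or -1.73, Ptprz1 to -0.69 or -0.80 and Ntrk2 to -0.50. A filter of 5 FPKM left Cntf, Mdk and Fgfr2 untested. Fragment numbers are unknown, so a member at 0 is not shown to be absent.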
